A study of Homo sapiens with 4 samples.

Results

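The genes described are 34 that act in the repair of DNA double-strand breaks and interstrand crosslinks. They were chosen by name, with earlier results of these data known, for their role in checkpoint signalling, recombination, the Fanconi pathway or end joining. They were measured with Affymetrix HG-U133 Plus 2.0 arrays, on which several probe sets can report 1 gene. A gene counted as matched when at least 1 probe set mapped to its symbol alone, and the brightest of these, by mean log2(signal + 1) over all arrays, stood for the gene. By this rule 30 of the 34 were matched among 19775 matched genes in all, and 29 of them were among the 12190 genes bright enough to be tested. RBBP8, BRCA2, FANCA and FANCD2 were not analysed here. XRCC3, a recombination protein, was too dim to test, with signals of 71.5 and 10.1 in the control cells and 10.9 and 24.2 in the ING3 cells.

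All arrays came from MIA PaCa-2 cells, a long-established line from a human pancreatic carcinoma. One cell population carried a lentivirus for full-length, FLAG-tagged ING3 behind the CMV/TO promoter of pLenti CMV/TO Puro DEST, and the control population carried a GFP lentivirus. Both had been stably selected, and each was hybridised to 2 arrays, a and b. The series' design text calls these technical duplicates, so that every error and p-value here measures the technical spread around 1 population per group and not the spread between independent cultures.

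A double-strand break is sensed by the MRE11-RAD50-NBN complex and signalled by the kinase ATM, while single-stranded DNA activates ATR; their targets include the kinases CHEK2 and CHEK1 and the histone variant H2AX. The break is then either rejoined by the Ku proteins, DNA-PKcs and the XRCC4-LIG4 ligase, or cut back and repaired from the sister chromatid by BRCA1, PALB2 and their partners. The Fanconi core complex attaches ubiquitin to FANCD2 and FANCI at crosslinked DNA and hands the lesion to nucleases and recombination. ING3 belongs to NuA4/TIP60, a complex whose catalytic subunit KAT5 (TIP60) acetylates histones and ATM at breaks.

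None of the 29 tested repair genes passed the threshold, a Benjamini-Hochberg adjusted p under 0.05 over all tested genes from limma, a linear model that shares the estimate of spread across genes. Over all tested genes 183 passed, which is 1.50%. At an unadjusted p under 0.05 there were 3 of the 29 repair genes, FANCI and CHEK2 with higher and LIG4 with lower signals in the ING3 cells, or 10.3%, beside 17.7% of all tested genes. The 2 ING3 arrays lay wholly above the 2 control arrays for 6 repair genes and wholly below them for 5, together 37.9%, beside 49.2% of all tested genes. In this main fit each of these shares was below that of the whole array. The order did not hold under every alternative setting.

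The log2 differences, ING3 minus control, ran from -0.51 for FANCB to 0.47 for FANCI with a median of -0.0092, beside a median of -0.0074 over all tested genes. Mean signals were higher in the ING3 cells for 14 repair genes and lower for 15. The median size of a difference, regardless of sign, was 0.10 for the repair genes and 0.13 for all tested genes. The 95% interval lay inside a 1.5-fold difference in either direction for 23 of the 29 (79.3%), beside 67.6% of all tested genes. For the other 6, ATM, LIG4, FANCI, XRCC2, RAD54L and FANCB, the interval reached past 1.5-fold, so a difference of that size was within the error of these arrays.

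**Figure D1:**
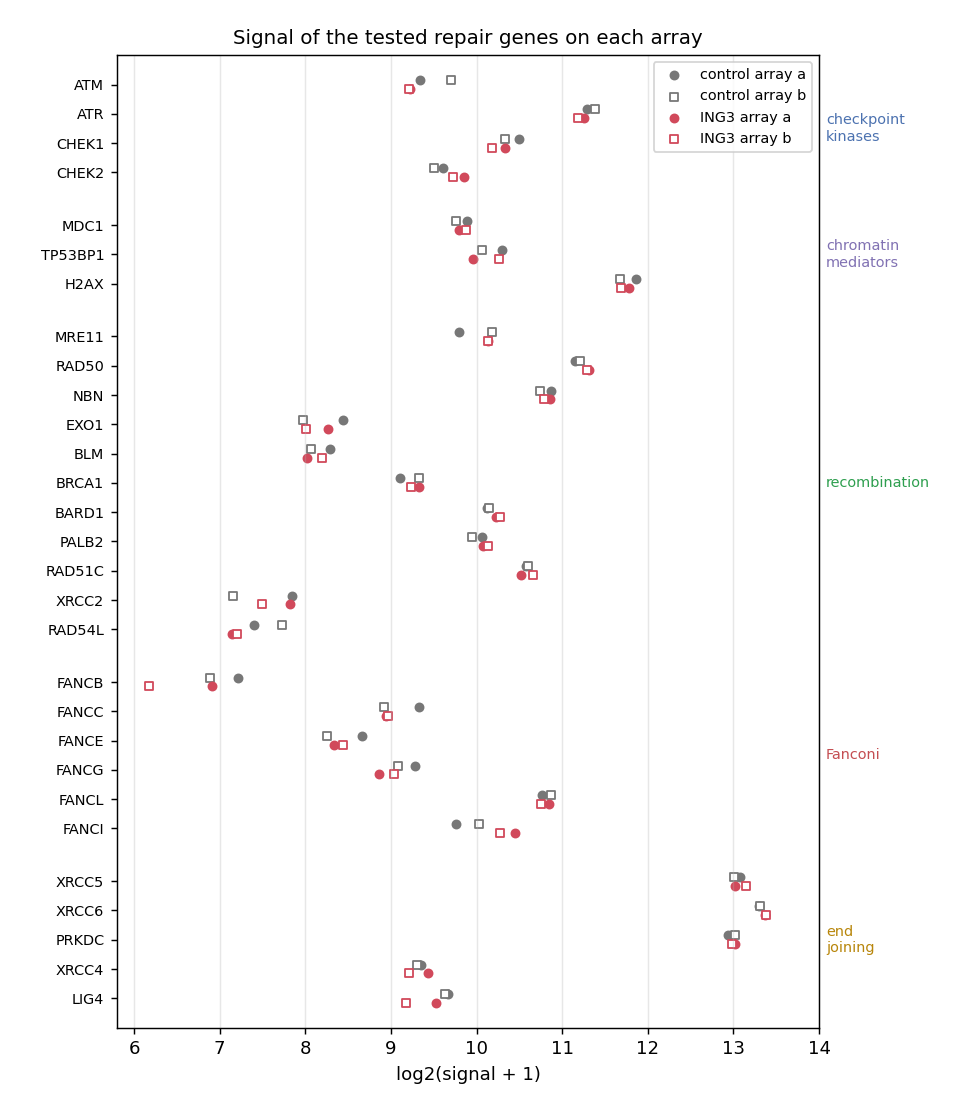
Signal of the 29 tested repair genes on each array, as log2(signal + 1) on the horizontal axis, with grey symbols for the control arrays, red symbols for the ING3 arrays, circles for array a and squares for array b. FANCI and CHEK2 show both red symbols to the right of both grey ones, ATM and LIG4 to the left, and most other genes show interleaved symbols; positions of different genes cannot be compared, since each rests on its own probe set.

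Duplicate arrays differed from each other about as much as the groups did. The ING3-control difference was larger than the gap within either pair of duplicates for 8 of the 29 repair genes (27.6%), beside 36.9% of all tested genes. The median gap between the control duplicates was 0.16 on the log2 scale for the repair genes and 0.11 for all tested genes; between the ING3 duplicates it was 0.095 and 0.12. Control array a held the highest signal of 13 of the 29 repair genes, more than any other array. Over all tested genes it also led, but with a smaller share, 3408 of 12190. Its 3'/5' signal ratio of ACTB, a measure of RNA integrity, was 2.58, beside 1.80 on control array b and 2.05 and 2.03 on the ING3 arrays. The part of this ratio in the repair gene values was not tested.

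The array values were scaled to a common trimmed mean of 500.1. Signals of duplicates correlated across genes, which are not independent replicates, at 0.989 for control and 0.991 for ING3. The brightest of 4 ING3 probe sets read 338 and 373 in the control and 521 and 541 in the ING3 cells, a log2 difference of 0.58 (SE 0.13), 1.49-fold, that missed the threshold (limma adjusted p = 0.0714). The other ING3 probe sets past the filter differed by -0.19 and 0.018, the one under the filter by 0.50, and the mean of the probe sets past the filter by 0.14 (adjusted p = 0.667). The partner subunits KAT5 and TRRAP differed by -0.081 (SE 0.13) and -0.016 (SE 0.085), and EP400 by -0.28 (SE 0.11, adjusted p = 0.218). Of the 7 markers listed for carcinoma cells, KRT8, KRT18, KRT19 and VIM were bright. KRT8 and KRT19 passed the threshold as higher in the ING3 cells. KRT7 read 70.3 to 111, near the filter, and EPCAM and CDH1 were under it. The leukocyte marker PTPRC read between 9.38 and 16 on the 4 arrays. CD3E read 38.8 to 129 and PECAM1 100 to 147, both past the filter. No fibroblast, leukocyte or endothelial marker passed the threshold, which concerns a group difference and not presence. COL1A2 read 3749 to 4648, COL3A1 1289 to 1414, COL1A1 181 to 288, DCN 56.1 to 97.7 and CDH5 257 to 328. The 4 tested fibroblast markers all had lower means in the ING3 cells, beside 51.7% of all tested genes. Groups did not overlap for 2 of the 4, COL1A2 (-0.25) and COL1A1 (-0.45), beside 49.2% of all tested genes. The 3 tested leukocyte and endothelial markers overlapped between groups. LUM, PDGFRB, CD14 and VWF were under the filter.

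Among the checkpoint kinases, CHEK2 was higher in the ING3 cells and ATM and ATR were lower, none of them past the threshold. CHEK2, the effector kinase downstream of ATM, read 778 and 723 in the control and 921 and 848 in the ING3 cells. Both ING3 arrays stood above both control arrays. The means were 751 ± 38.7 and 885 ± 51.4 (SD, n = 2), and the log2 difference was 0.24 (SE 0.10, 95% interval 0.0054 to 0.47, limma adjusted p = 0.271). CHEK2 has 1 probe set, so the array holds no second reading of it.

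ATM, the kinase that responds to double-strand breaks, read 645 and 829.9 in the control and 595 and 594 in the ING3 cells. Both ING3 arrays were lower, but the control duplicates lay further apart than control array a did from the ING3 arrays. The log2 difference was -0.30 (SE 0.13, 95% interval -0.60 to 0.0031, limma adjusted p = 0.286). The chosen ATM probe set is of the _x_at kind, which can hybridise with other transcripts. The other probe sets of ATM give a separate reading: the 4 that passed the filter differed by -0.48, -0.36, -0.53 and -0.26, and all 4 had lower means in the ING3 cells. The last 2 of these read 58.5 to 128, near the filter, and their groups overlapped. Without _x_at probe sets ATM differed by -0.48 and still missed the threshold (limma adjusted p = 0.0927). A sixth, under the filter, differed by 0.91 between signals of 9.99 to 25.7.

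ATR, the kinase that responds to single-stranded DNA, read 2506 and 2677 in the control and 2441 and 2319 in the ING3 cells. The groups did not overlap, and the difference was -0.12 (SE 0.072, adjusted p = 0.41). CHEK1, the effector kinase of ATR, read 1439 and 1284 against 1288 and 1157, with overlapping groups and a difference of -0.15 (SE 0.096). The other probe sets of ATR and CHEK1 did not all point the same way as the brightest. The median over the 4 kinases was -0.14.

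The promoters of ATM and CHEK2 are shown because these kinases stood furthest from no difference in their group, in opposite directions. The stretches are the 250 bases before the RefSeq transcript start in GRCh38.p14, at chr11:108222817-108223066 on the plus strand for ATM and at chr22:28741821-28742070 on the minus strand for CHEK2, written 5′ to 3′ along the gene. Capitals mark CCAAT, the letters bound by NF-Y, searched on both strands and here found as ATTGG.
ATM: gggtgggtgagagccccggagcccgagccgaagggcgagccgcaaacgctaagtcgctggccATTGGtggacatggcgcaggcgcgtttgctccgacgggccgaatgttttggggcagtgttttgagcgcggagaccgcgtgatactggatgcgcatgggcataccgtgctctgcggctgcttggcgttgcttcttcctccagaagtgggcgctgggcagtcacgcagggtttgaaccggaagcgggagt
CHEK2: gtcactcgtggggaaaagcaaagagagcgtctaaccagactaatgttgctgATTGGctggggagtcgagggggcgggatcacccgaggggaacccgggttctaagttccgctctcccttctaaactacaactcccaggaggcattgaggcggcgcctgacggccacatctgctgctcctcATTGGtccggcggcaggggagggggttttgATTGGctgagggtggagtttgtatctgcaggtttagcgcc
The ATM stretch holds 1 match, 188 bases before the start, and the CHEK2 stretch holds 3, at 199, 70 and 40 bases before it. Both genes have a neighbour on the opposite strand with a listed start within 1000 bases. ATM has 2 listed starts, and the distance given need not refer to the one shown. NPAT, a histone gene coactivator, starts 429 bases from ATM and differed by -0.11 (SE 0.10). HSCB, an iron-sulfur cluster chaperone, starts 212 bases from CHEK2 and differed by -0.11 (SE 0.090), the opposite sign to CHEK2.

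The chromatin mediators gave interleaved arrays throughout. TP53BP1, which steers breaks toward end joining, read 1261 and 1072 in the control and 992 and 1228 in the ING3 cells, a difference of -0.075 (SE 0.12, 95% interval -0.35 to 0.20, limma adjusted p = 0.805). MDC1, the adaptor that reads phosphorylated H2AX, read 945 and 868 against 888 and 937, a difference of 0.010 (SE 0.098, 95% interval -0.21 to 0.23, adjusted p = 0.971). H2AX itself read 3724 and 3262 against 3511 and 3305, a difference of -0.033 (SE 0.078, 95% interval -0.21 to 0.14, adjusted p = 0.871). All 3 intervals lay inside 1.5-fold. The other probe sets of these genes that passed the filter had the same sign as the brightest.

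In the recombination group, 8 of 11 tested genes had higher means in the ING3 cells, with a median of 0.066, and none reached an unadjusted p under 0.05. EXO1 and BLM also turned higher with quantile normalization and cyclic loess. The median was -0.029 with the mean of probe sets, 0.016 without control array b and 0.024 without ING3 array a. RAD50, the coiled-coil ATPase of the break-sensing complex, read 2269 and 2374 in the control and 2540.3 and 2501 in the ING3 cells. Its groups did not overlap, at a difference of 0.12 (SE 0.069, 95% interval -0.035 to 0.27, limma adjusted p = 0.401), but its other probe sets differed by -0.21 and -0.23. The partners' brightest probe sets gave overlapping groups: MRE11, the nuclease, read 887 and 1159 against 1121 on both ING3 arrays, and NBN, the subunit that recruits ATM, differed by 0.013 (SE 0.079). A pair of dimmer NBN probe sets was higher on both ING3 arrays, at 0.29 (SE 0.11) and 0.25 (SE 0.21). The 2 dimmer MRE11 probe sets were lower on both ING3 arrays, at -0.61 and -0.54, against 0.14 for the brightest.

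BRCA1 and its partners gave differences whose 95% intervals included 0. BARD1, the obligate partner of BRCA1, read 1111 and 1133 in the control and 1202 and 1241 in the ING3 cells, a difference of 0.12 (SE 0.084, 95% interval -0.067 to 0.31, limma adjusted p = 0.489). PALB2, which links BRCA1 to BRCA2, read 1072 and 983 against 1079 and 1126, a difference of 0.10 (SE 0.092). For both, the ING3 arrays stood above the control arrays. BRCA1 overlapped between groups and differed by 0.066 (SE 0.12). The other probe sets of BARD1 and BRCA1 had the opposite sign, and with the mean of probe sets BARD1 came to 0.0071 and BRCA1 to -0.029.

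RAD54L, a DNA-dependent motor protein of recombination, was the recombination gene with the lowest difference. It read 168 and 210.5 in the control and 140.3 and 147 in the ING3 cells, without overlap, at -0.39 (SE 0.23, 95% interval -0.91 to 0.13, limma adjusted p = 0.417). XRCC2, a recombination protein measured by an _x_at probe set, read 229 and 142 against 225 and 179.6, so that the control duplicates alone spanned both ING3 values, and its interval of -0.44 to 0.75 was the widest of the group. EXO1, which resects break ends, read 347 and 250.5 against 306 and 256, and BLM, a helicase that dissolves recombination intermediates, read 311 and 266 against 258 and 292. RAD51C, which forms complexes with XRCC2 and XRCC3, differed by 0.0039 (SE 0.083).

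The Fanconi group held both extremes of the repair genes. FANCI, which is ubiquitinated together with FANCD2 and forms a clamp with it on DNA, read 864 and 1045 in the control and 1394 and 1239.7 in the ING3 cells. Both ING3 arrays stood above both control arrays. The means were 954 ± 128 and 1317 ± 109 (SD, n = 2), 1.38-fold apart, and the log2 difference was 0.47 (SE 0.11, 95% interval 0.21 to 0.72). It missed the threshold at a limma adjusted p of 0.0791 and ranked 349 among all tested genes by p. Its other probe sets read 308 and 439 against 494 and 511, and 146 and 148 against 172 and 185. These differed by 0.45 and 0.28, so all 3 probe sets of FANCI were higher on both ING3 arrays.

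The other Fanconi genes, all of the core complex, had lower means in the ING3 cells, 5 of 5, but not under every setting. FANCE turned higher with quantile normalization (0.017) and cyclic loess (0.024). Without control array a, FANCE (0.14) and FANCC (0.036) were higher. FANCL was higher without control array b (0.036) and without ING3 array b (0.035). Of all tested genes, 51.7% had lower means. FANCG, a scaffold subunit, read 619 and 543 in the control and 463 and 526 in the ING3 cells, without overlap, at -0.23 (SE 0.13, 95% interval -0.53 to 0.063, limma adjusted p = 0.391). FANCB, which supports the ubiquitin ligase subunit FANCL, read 147 and 117 against 119 and 71.5, and the groups overlapped. At -0.51 (SE 0.33, 95% interval -1.25 to 0.24, adjusted p = 0.465) it had the most negative value and the largest error of the 29, and another FANCB probe set differed by 0.40. Its difference was -0.14 without ING3 array b, -0.87 without ING3 array a and -0.052 with the mean of probe sets. FANCC differed by -0.17 (SE 0.15), FANCE by -0.066 (SE 0.17) and FANCL by -0.012 (SE 0.079), each with overlapping groups. The median of the Fanconi group, FANCI included, was -0.12; it was -0.012 without control array a and -0.30 without control array b.

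**Figure D2:**
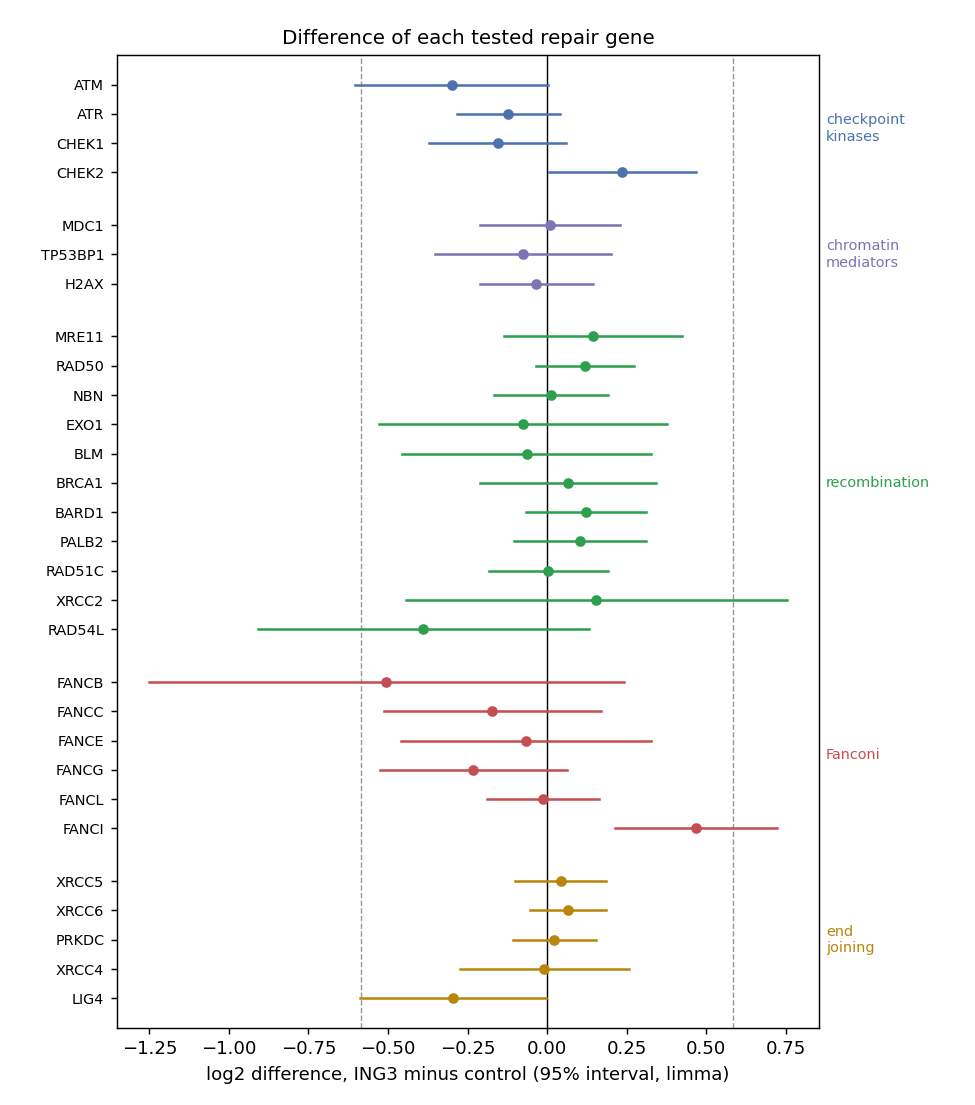
Log2 difference of each tested repair gene, ING3 minus control, on the horizontal axis, with points for the estimate, bars for limma's 95% interval and dashed lines at a 1.5-fold difference either way. The bars of FANCI and CHEK2 lie above 0 and that of LIG4 below 0, before adjustment over all tested genes, while the bars of the dim genes FANCB, RAD54L and XRCC2 are the longest.

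The brightest probe sets of the end joining genes other than LIG4 differed by -0.0092 to 0.067, but the group's median moved from 0.023 to -0.16 with the mean of probe sets. XRCC6 and XRCC5 are the Ku subunits that cap broken ends. XRCC6 read 10101 and 10161 in the control and 10582.5 and 10639.7 in the ING3 cells, a tight pair on each side without overlap, and the difference was only 0.067 (SE 0.053, 95% interval -0.053 to 0.19, limma adjusted p = 0.559). XRCC5 read 8637 and 8216 against 8305 and 9066, with overlap, and differed by 0.043 (SE 0.064, 95% interval -0.10 to 0.19, adjusted p = 0.778). Its other probe sets differed by -0.083 and -0.65, the latter from a far dimmer probe set that read 106 to 193. PRKDC, the catalytic subunit DNA-PKcs, differed by 0.023 (SE 0.058), and XRCC4, the scaffold of LIG4, by -0.0092 (SE 0.12; an _x_at probe set). The other XRCC4 probe sets past the filter differed by -0.19, lower on both ING3 arrays, and by -0.27. The intervals of these 4 genes' brightest probe sets lay inside 1.5-fold.

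LIG4, the ligase that seals the ends, read 814 and 791 in the control and 738 and 578 in the ING3 cells. Both ING3 arrays were lower, array b much more than array a. The means were 802 ± 15.7 and 658 ± 113 (SD, n = 2), and the log2 difference was -0.30 (SE 0.13, 95% interval -0.59 to -0.0047, limma adjusted p = 0.274). Its second probe set, at -0.25, was lower on both ING3 arrays as well. ABHD13 has a listed start 43 bases from a LIG4 start, on the opposite strand. LIG4 has 5 listed starts, and this one need not be the start used for the stretch below. ABHD13 was lower on both ING3 arrays too, at -0.34 (SE 0.20, adjusted p = 0.411). The 250 bases before the LIG4 start, at chr13:108218350-108218599 on the minus strand of GRCh38.p14, are shown for comparison with CHEK2; they hold no CCAAT on either strand and so no capitals.
LIG4: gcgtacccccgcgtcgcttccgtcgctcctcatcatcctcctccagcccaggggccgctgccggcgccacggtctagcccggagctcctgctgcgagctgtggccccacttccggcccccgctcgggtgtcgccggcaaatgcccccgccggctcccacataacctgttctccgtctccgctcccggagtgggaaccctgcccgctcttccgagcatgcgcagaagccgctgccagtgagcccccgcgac

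Divergent neighbours were sought for the repair genes only, so no share over all genes stands beside their count. Of the 30 repair genes with a promoter in the RefSeq table, 17 had a start on the opposite strand within 1000 bases. For 9 of these, both genes were tested. Besides those of ATM, CHEK2 and LIG4, the pairs with the largest member differences were FANCB with MOSPD2 at -0.12 (SE 0.11) and MRE11 with ANKRD49 at -0.19 (SE 0.11), the latter opposite in sign to MRE11.

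**Figure D3:**
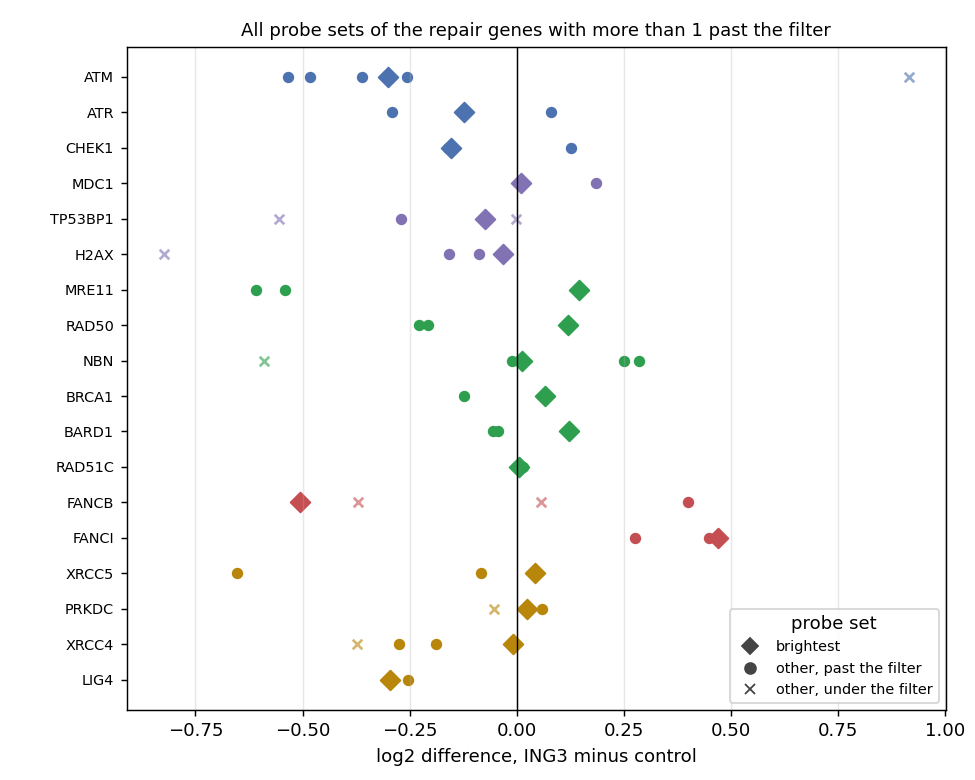
Log2 difference, ING3 minus control, of every probe set of the 18 repair genes with more than 1 probe set past the filter, with diamonds for the brightest, circles for others past the filter and crosses for those under it. The FANCI probe sets all lie right of 0 and the LIG4 ones left of it, as do those of ATM past the filter, whereas MRE11, RAD50, FANCB and XRCC5 lie on both sides.

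Probe sets of 1 gene often disagreed. The repair genes had 75 probe sets, of which 62 passed the filter and 0 passed the threshold when all probe sets were tested one by one with limma. Of the 18 genes with more than 1 probe set past the filter, 9 had every one on the same side of 0 as the brightest, and 9 had at least 1 on the other side. Of the 33 other probe sets past the filter, 20 had the sign of the brightest. FANCI, ATM and LIG4 were among the genes whose probe sets shared a sign. Other such genes were H2AX, MDC1, TP53BP1, XRCC4, PRKDC and RAD51C.

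Many repair genes are transcribed in S phase through E2F factors, so their promoters were searched for E2F-type letters, TTTCCCGC, TTTCGCGC, TTTGCCGC and TTTGGCGC on both strands, from 250 bases before to 50 after the start. Promoters were matched for 30 of the 34 genes, and FANCI, NBN, PRKDC and XRCC5 were not matched. The letters were found in 6 of the 30 (20%), in EXO1, XRCC2, FANCA, FANCC, FANCD2 and XRCC6. They were found in 3.33% of all 27305 promoters and in 5.33% of the 9928 promoters of tested genes. CCAAT was found in 14 of the 30 (46.7%), beside 35.7% of all promoters. Of the 6, those tested here are shown with the bases around the match in GRCh38.p14, along the gene's strand, with the match in capitals. They are EXO1 at chr1:241848197-241848226, XRCC2 at chr7:152676102-152676131, FANCC at chr9:95317863-95317892 and chr9:95317737-95317766, and XRCC6 at chr22:41621326-41621344.
EXO1: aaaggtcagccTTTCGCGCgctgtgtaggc
XRCC2: tggcgttggtgGCGGGAAAgttgagtctct
FANCC, first match: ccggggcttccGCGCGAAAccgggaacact
FANCC, second match: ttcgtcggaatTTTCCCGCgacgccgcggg
XRCC6: gtcgcttccctGCGCCAAA
Their log2 differences were -0.075, 0.16, -0.17 and 0.067 for EXO1, XRCC2, FANCC and XRCC6, on both sides of 0. A match is a description of the letters and not of binding.

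Levels of S-phase genes give the background for that group. Of 20 listed replication and S-phase genes, all were tested, 0 passed the threshold with limma and the median difference was -0.0050. Groups did not overlap for 12 (60%), beside 49.2% of all tested genes. At an unadjusted p under 0.05 there were 3 (15%), beside 17.7% of all tested genes. Means were higher in the ING3 cells for 10 and lower for 10. Those 3 were TYMS, thymidylate synthase, at 0.27 (adjusted p = 0.0711), CDT1, the origin licensing factor, at -0.58 (adjusted p = 0.0899) and GINS1, a subunit of the replicative helicase, at -0.27 (adjusted p = 0.131). They did not share a direction.

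The other genes of the same pathways, 76 listed, 70 matched and 67 tested, also gave 0 past the threshold with limma. At an unadjusted p under 0.05 there were 6 higher and 2 lower (11.9%), below the 17.7% of all tested genes. Groups did not overlap for 34 (50.7%), close to 49.2% of all tested genes. Their median was 0.055, with 41 higher and 26 lower means. By pathway the medians were 0.19 for 11 checkpoint genes, 0.066 for 13 chromatin response genes, 0.033 for 24 recombination genes, 0.055 for 13 Fanconi genes and 0.0062 for 6 end joining genes. Groups did not overlap for 11 of the 13 chromatin response genes, 8 higher and 3 lower, the largest share of these pathways. The counts were 4 of 11 checkpoint, 10 of 24 recombination, 8 of 13 Fanconi and 1 of 6 end joining genes. The chromatin response genes had close duplicates, with median gaps of 0.024 for control and 0.048 for ING3. Over all tested genes these gaps were 0.11 and 0.12. Their median difference, regardless of sign, was 0.11 for the chromatin response genes and 0.13 for all tested genes, so their share without overlap does not mean larger differences.

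**Figure D4:**
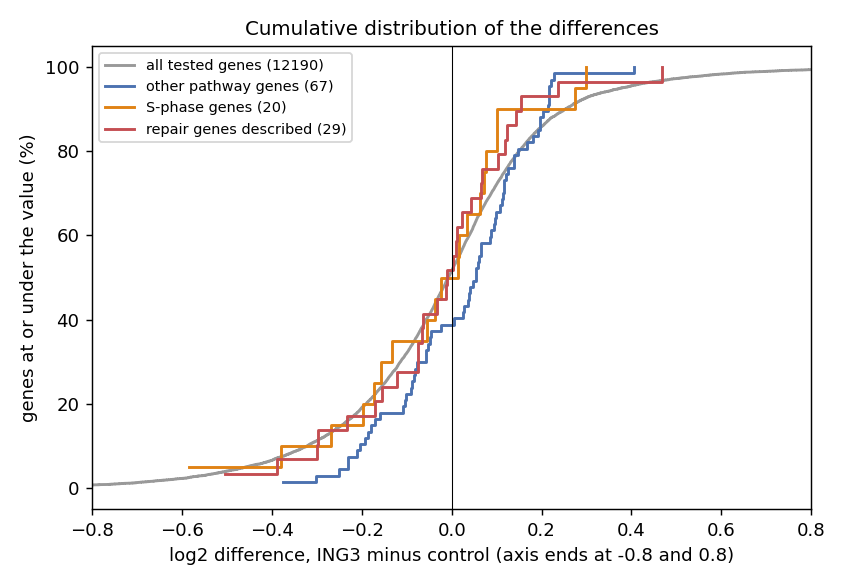
Cumulative share of genes, in percent on the vertical axis, at or under each log2 difference, ING3 minus control, for the 29 tested repair genes, the 67 other pathway genes, the 20 S-phase genes and all 12190 tested genes. The repair gene curve crosses 0 beside the curve of all genes, with medians of -0.0092 and -0.0074, and the other pathway genes lie to the right with a median of 0.055.

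Of these other genes, BABAM2, MAD2L2 and RNF168 had the smallest p-values among those with higher means in the ING3 cells. BABAM2, a scaffold of the BRCA1-A deubiquitinase complex, read 3082 and 2963 in the control and 3587 and 3492 in the ING3 cells (0.23, SE 0.064, limma adjusted p = 0.116). MAD2L2, a subunit of the shieldin complex that blocks resection, read 2653 and 2624 against 3021 and 3103 (0.21, SE 0.065, adjusted p = 0.135). RNF168, the ligase that marks chromatin for TP53BP1, read 2001 and 1968 against 2249 and 2363 (0.22, SE 0.071, adjusted p = 0.161). All 3 were higher on both ING3 arrays, which the choice by small p favours. With the mean of probe sets BABAM2 came to 0.12 (limma adjusted p = 0.522), while MAD2L2 and RNF168 stayed at 0.21 and 0.22.

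Among those with lower means, the smallest were of TOPBP1, BRCC3 and USP28. TOPBP1, the activator of ATR, read 2666 and 2753 in the control and 2400.2 and 2218 in the ING3 cells (-0.23, SE 0.072, limma adjusted p = 0.145). BRCC3, the deubiquitinase of the BRCA1-A complex, by an _x_at probe set, read 2351 and 2391 against 2213 and 1965 (-0.19, SE 0.079, adjusted p = 0.263), the opposite sign to its scaffold BABAM2. USP28, a deubiquitinase that binds TP53BP1, read 1004 and 854 against 913 and 558 (-0.38, SE 0.20, adjusted p = 0.355). Groups overlapped for USP28 and not for TOPBP1 or BRCC3. The USP28 value depended on which ING3 array was kept: without ING3 array a its difference was -0.73 (adjusted p = 0.0277) and without ING3 array b it was -0.020 (adjusted p = 0.963).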

How the data were processed

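Signal intensity values of 54675 probe sets on 4 arrays were used as deposited. Per the submitters' processing notes, the authors used MAS5 and Affymetrix Expression Console, whose versions the sources used here do not give. MAS5 subtracts mismatch signals, so dim probe sets vary widely. Arrays have no read depth, and their number limits the precision.

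Leaving out 62 control probe sets, 41097 probe sets had 1 symbol in GEO's platform annotation, 1801 had several and 11777 were unnamed. Each gene was represented by its brightest probe set. Values were analysed as log2(signal + 1) with a pseudocount of 1, which understates differences of dim genes. Genes whose mean reached the median of all probe sets (log2 6.04, a signal of 64.6) were tested with limma 3.58.1 in R 4.3.3, by lmFit and eBayes with an intensity trend and no covariates, two-sided, with 2 residual and 7.35 prior degrees of freedom and Benjamini-Hochberg adjustment. The procedure was tested on simulated data. An exact permutation test of 2 against 2 arrays cannot give a p below 0.333 and was not used. Promoter sequences and starts are those of RefSeq for GRCh38.p14. The motif search and the printed stretches used 1 promoter per gene, the first listed. The search for neighbours used all listed starts and kept the shortest distance.

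The repair genes and all lists were chosen with earlier results of these data known. Every repair gene is reported, with full statistics for the 3 with the smallest p in each group. Of the other pathway genes, the 3 with the smallest p in each direction are described, together with ING3, KAT5, EP400 and TRRAP. S-phase genes, markers and neighbours named beside them were chosen after their values were seen. The 12 alternatives comprised another pseudocount, no filter, quantile normalization, cyclic loess, no trend, the mean of probe sets, no _x_at probe sets, each array left out and a replicate block.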

Additional observations from a re-analysis of the deposited data

How the results depend on the processing

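No repair gene passed the threshold under 11 of the 12 alternatives. With the replicate block, which treats arrays of the same letter as pairs, 1 passed: FANCI, at an adjusted p of 0.0297, against a range of 0.0297 to 0.388 over its alternatives. S-phase genes past the threshold numbered 2 with the block (CDT1 and TYMS), and ING3 reached 0.0398. The letters a and b are shared only as letters: differences between a and b of both groups correlated at 0.029 across tested genes and 0.19 across the repair genes. Without ING3 replicate a, USP28 passed at -0.73 (adjusted p = 0.0277; without ING3 replicate b -0.020, adjusted p = 0.963), as did CDT1 and TYMS, so leaving out arrays gave 0 to 1 other pathway genes and 0 to 2 S-phase genes. Over all tested genes the 183 past the threshold became 54 without the filter, 115 with quantile normalization, 122 with the mean of probe sets, 0 without the trend (1686 at an unadjusted p under 0.05), 2 without control replicate a, 2 without control replicate b, 305 without ING3 replicate a and 442 with the replicate block. With the mean of probe sets, 5 of the 29 repair genes reached an unadjusted p under 0.05 with limma, close to 16.6% of all tested genes. They were ATM, CHEK2, FANCI, LIG4 and XRCC5. The median became -0.066, and 4 repair genes turned sign: MRE11 (-0.33), RAD50 (-0.11), BRCA1 (-0.029) and XRCC5 (-0.23). Cyclic loess turned 6, XRCC5 (-0.013), EXO1, BLM, FANCE, PRKDC and XRCC4, and quantile normalization turned 5, the same without XRCC5. With 1 array left out, 16 to 25 of the 29 repair genes did not overlap, beside 73.1% to 75.9% of all tested genes. Without control replicate b it was 25 of 29, beside 74.5%, so that share was then above that of the whole array. The median of the repair genes lay between -0.052 and 0.042. Differences then ran from -0.23 to 0.079 for TP53BP1, -0.13 to 0.062 for H2AX, -0.052 to 0.072 for MDC1 and -0.020 to 0.11 for XRCC5; the lone array of a group is assumed to vary like the other group. FANCI ran from 0.33 to 0.61, ATM from -0.48 to -0.12, LIG4 from -0.47 to -0.12, FANCB from -0.87 to -0.14, RAD54L from -0.55 to -0.23 and FANCG from -0.33 to -0.14. Apart from the settings named, the cause of these shifts was not tested.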
